A study of Homo sapiens with 8 samples.

Results

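Open chromatin found on day 4 on the soft matrix and in no other condition comprised 393 regions of 75501 consensus sites, a consensus site being a merged region with peaks from at least 2 libraries. The regions were chosen by measured values: overlapping peaks (1 bp or more) of 8 ATAC-seq peak lists were merged, and a region was taken if both D4 soft lists had a peak in it and none of the other 6 lists did. The pattern was met by 0.521% of consensus sites and by 0.870% of the 45150 sites that had a peak in both D4 soft lists. Presence in a list and the strength of the peaks therefore belong to the choice, and both are given below as a description without a test.

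The libraries came from LX-2, an immortalised human hepatic stellate cell line, on polyacrylamide hydrogels coated with fibronectin, with a stiffness near 2 kPa on the soft and near 40 kPa on the stiff matrix. Harvest was after 2 days (D2) or 4 days (D4), and all groups were wild type, with no agent named in the labels. Each of the 4 combinations of day and matrix had 2 replicate libraries. The study calls its sequencing replicates biological, without saying whether they were separate cultures on separate days, and p-values measure the spread between these libraries, which may be technical in part. The study compared the stiff with the soft matrix, a model of the fibrotic and the normal liver.

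Hepatic stellate cells store retinoid in the healthy liver and turn into contractile, collagen-producing myofibroblasts in fibrosis, a change that a stiff matrix favours. ATAC-seq uses a transposase that inserts adapters where DNA is free of nucleosomes, so that peaks mark active promoters and distal elements such as enhancers. Distal elements are often bound by AP-1, a dimer of FOS and JUN proteins, and by TEAD factors, the DNA-binding partners of the mechanosensitive coactivators YAP and TAZ.

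The lists held 29789 to 72840 peaks, and the depth estimated from them was 0.780 to 3.15 fragments per kb of genome. D2 soft replicate 1 was the least deep library, and both D4 stiff libraries were deeper than both D4 soft libraries (3.15 and 2.87 against 2.69 and 2.72). All D2 libraries were shallower than both D4 soft libraries, with 2.08 in D2 soft replicate 2 and 2.32 and 2.19 in D2 stiff. Promoters of 7 of 12 stellate and mesenchymal marker genes, ACTA2, COL1A1, PDGFRB, VIM, TIMP1, SPARC and TAGLN, had a peak in every library, whereas those of COL3A1, DES and LRAT had none in any. None of the 6 hepatocyte markers had a promoter peak in every library, and those of the bile duct markers KRT19 and KRT7 had none in any. PECAM1 was not scored, and of the other 3 endothelial and 4 immune markers CD14 and CD68 had one in every library and KDR in 7, and EPCAM among 4 epithelial markers had one in 6.

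The sequences below are from the forward strand of GRCh37, 100 bases on each side of the summit of the stronger D4 soft peak, for 7 of the strongest sites with a centre outside annotated exons. They were picked to show the motifs described further on, so their mix does not reflect the set. An AP-1 motif lay at 25.7% of the 393 sites and at 8 of the 20 strongest. Capitals mark AP-1 motifs (TGACTCA or TGAGTCA) and TEAD motifs (GGAATG), each searched on both strands.
CDH2 intron, chr18:25619138-25619338: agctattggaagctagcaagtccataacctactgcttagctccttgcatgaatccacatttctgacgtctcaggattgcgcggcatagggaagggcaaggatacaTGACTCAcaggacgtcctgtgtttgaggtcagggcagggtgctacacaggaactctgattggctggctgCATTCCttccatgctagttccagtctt
GPAT3 intron, chr4:84482609-84482809: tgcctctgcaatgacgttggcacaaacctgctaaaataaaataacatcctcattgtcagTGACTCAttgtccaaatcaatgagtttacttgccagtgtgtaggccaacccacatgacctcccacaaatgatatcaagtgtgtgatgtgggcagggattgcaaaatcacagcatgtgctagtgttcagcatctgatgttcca
LINC00511 intron, chr17:70367146-70367346: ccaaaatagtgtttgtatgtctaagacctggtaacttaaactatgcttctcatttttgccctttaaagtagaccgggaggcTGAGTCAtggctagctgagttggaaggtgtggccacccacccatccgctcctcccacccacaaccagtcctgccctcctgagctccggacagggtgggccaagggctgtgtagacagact
DPY19L2 intron, chr12:63978301-63978501: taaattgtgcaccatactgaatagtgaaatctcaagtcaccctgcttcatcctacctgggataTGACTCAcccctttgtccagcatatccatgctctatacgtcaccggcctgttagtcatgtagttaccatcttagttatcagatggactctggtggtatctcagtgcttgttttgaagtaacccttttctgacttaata
ZBTB20 intron, chr3:114425510-114425710: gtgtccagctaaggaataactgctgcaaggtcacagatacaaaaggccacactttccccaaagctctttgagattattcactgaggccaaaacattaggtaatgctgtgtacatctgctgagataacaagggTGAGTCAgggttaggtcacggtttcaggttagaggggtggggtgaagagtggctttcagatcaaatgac
Intergenic, nearest to NAMPT, chr7:105998673-105998873: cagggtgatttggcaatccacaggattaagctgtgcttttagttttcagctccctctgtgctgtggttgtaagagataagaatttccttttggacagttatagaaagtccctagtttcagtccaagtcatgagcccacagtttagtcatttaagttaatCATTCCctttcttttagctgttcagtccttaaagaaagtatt
Intergenic, nearest to KLF3, chr4:38564424-38564624: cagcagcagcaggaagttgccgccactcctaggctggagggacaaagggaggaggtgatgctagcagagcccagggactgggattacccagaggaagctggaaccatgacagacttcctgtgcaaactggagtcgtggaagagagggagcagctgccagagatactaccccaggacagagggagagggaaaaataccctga
The CDH2 site held both motifs, the GPAT3, LINC00511, DPY19L2 and ZBTB20 sites held AP-1 alone, the site nearest to NAMPT held TEAD alone, and the site nearest to KLF3 held neither.

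The first question was how strong these sites were in the lists that defined them. They were weak. The median site stood 85.1% from the top of the D4 soft replicate 1 list and 84.9% from the top of the replicate 2 list, when peaks were ordered by −log10 p. Fold enrichment, how many times the fragments stacked at a summit exceed the local background estimated from that library, had a median of 4.51 in replicate 1, with a range of 2.72 to 10.8. In replicate 2 the median was 4.48 and the range 2.91 to 9.59. The fold enrichment and p-value of a peak correspond to a whole number of fragments at its summit under the model of the peak caller, and this number had a median of 7 fragments in replicate 1 (range 4 to 23) and 6 in replicate 2 (range 4 to 24). At the 24246 sites found in every library, the medians were 28 and 24 fragments. The lowest number at any peak of either list was 4, so that the typical member lay a few fragments above what a peak needed at all.

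**Figure D1:**
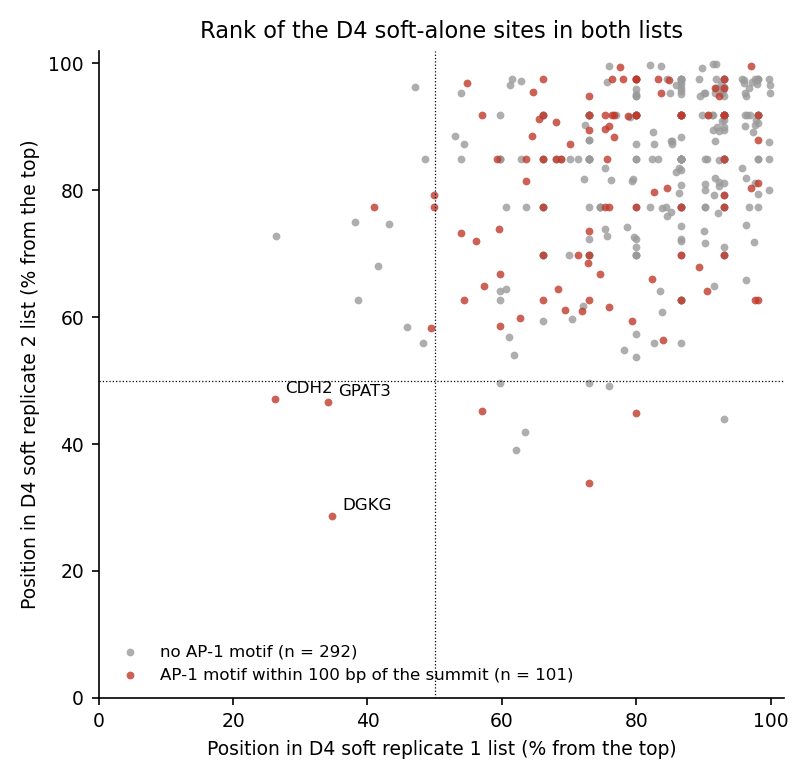
Position of each of the 393 sites in the D4 soft replicate 1 list (x axis) and in the replicate 2 list (y axis), in percent from the top by −log10 p. Red points have an AP-1 motif within 100 bp of the summit, dotted lines mark the middle of the lists, and the 3 labelled sites are those in the upper 50% of both.

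Only 3 sites stood in the upper 50% of both lists, and 230 (58.5%) stood more than 75% from the top of both. Within the set, rank in one replicate was a weak guide to rank in the other (Pearson's r = 0.387, Spearman's correlation 0.33, n = 393, a description across sites of 2 libraries). Most of the sites stood low in both lists, and so narrow a range of ranks limits the correlation. It was not compared with that at other sites. Summits in the replicates were a median of 60 bp apart, and 43.8% lay within 50 bp, beside 46 bp and 53.5% at all sites with peaks in both D4 soft lists. The peaks of the replicates shared a median of 223 bp, and 41 pairs shared less than 100 bp. The peak caller kept a q-value up to 0.05, and 329 sites passed 0.01 in both replicates. Just inside the threshold were a site in GFY (chr19:49931322-49931624, q of 0.00117 and 0.0478), one in the non-coding gene MIR31HG (chr9:21550174-21550587, q of 0.0471 and 0.00779) and one nearest to GRN (chr17:42415914-42416270, q of 0.0451 and 0.00474).

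Sites with peaks in both D4 soft lists became more frequent and stronger with each further library that shared them. Those shared with 1 other library numbered 788, with 5 other libraries 12463 and with all 6 others 24246. The median of the mean pileup over both D4 soft libraries was 6.5 fragments at the 393 sites, 8 at the 788 sites and 26 at the sites found in every library. The lone further library was D4 stiff replicate 2 at 285 of the 788 sites and D4 stiff replicate 1 at 180. It was D2 soft replicate 1, the shallowest library, at 16. The other way round, 4378 merged regions had a peak in D4 soft replicate 1 and in no other list, and 3565 in D4 soft replicate 2 alone. Left out in turn, D4 soft replicate 1 and replicate 2 gave 3982 and 4787 sites, and D4 stiff replicate 2 gave 675. Just outside the choice, the strongest site that a single further library shared lay in an exon of TSPAN19 (chr12:85410094-85410695), with fold enrichments of 12.1 and 10.5 in D4 soft and 10.6 in D4 stiff replicate 1. The next lay in an intron of NAV3 (chr12:78282473-78282815), with 11.8 and 9.61 in D4 soft and 7.96 in D2 stiff replicate 1. The third was intergenic near OR5AU1 (chr14:21636262-21636527), with 9.99 and 9.99 in D4 soft and 10.1 in D4 stiff replicate 2. All 3 had a better mean rank than any of the 393 sites.

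**Figure D2:**
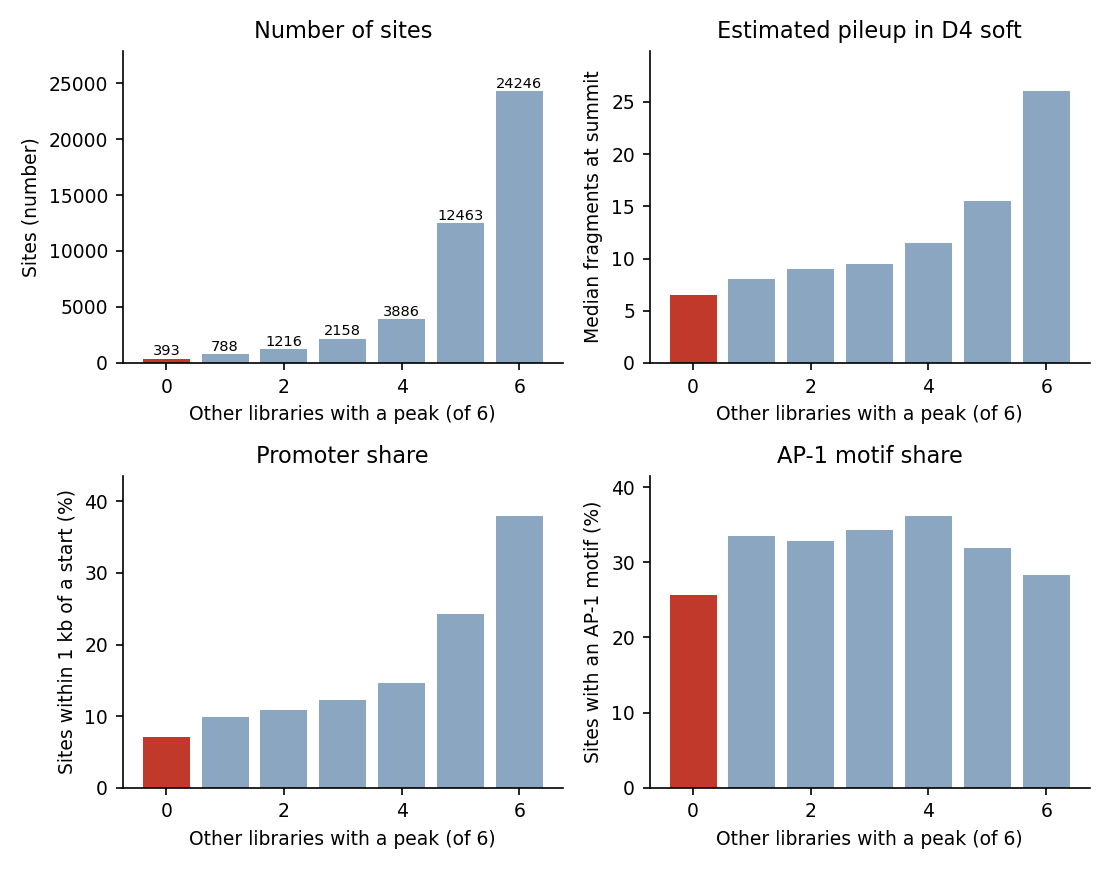
Sites with peaks in both D4 soft lists, by the number of other libraries that also had a peak there (x axis, red for the 393 sites with none): their number, the median of their mean estimated pileup in D4 soft, the share within 1 kb of a transcription start and the share with an AP-1 motif. Pileup and promoter share were lowest at the sites found in D4 soft alone, with 6.5 fragments and 7.12%, and highest at the sites found in every library, with 26 fragments and 37.9%.

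Absence from the other lists was mostly absence of any peak nearby. The nearest peak of another library was a median of 10.2 kb away, and it was within 1 kb of 22 of the 393 sites. A list shows peaks and not coverage, so a missing peak means that the signal did not pass the caller's threshold at that library's depth. How much open chromatin the other 6 libraries had at these sites was not measured here.

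The strongest site lay in an intron of DGKG (chr3:185998988-185999257), a diacylglycerol kinase gene, 80.6 kb from its nearest start. Its fold enrichment was 8.05 in D4 soft replicate 1 and 8.01 in replicate 2, from 23 and 24 fragments. CDH2, the gene of N-cadherin, a junction protein of mesenchymal cells, had the second site (chr18:25619142-25619402), 2.72 kb upstream of its nearest annotated start and within an intron. The values there were 10.8 and 7.73, from 21 and 13 fragments. GPAT3, which encodes an acyltransferase of triglyceride synthesis, had the third, in an intron 25.4 kb from a start (chr4:84482551-84482820), with 9.9 and 7.97. These were the 3 sites in the upper 50% of both lists, and each had an AP-1 motif.

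At some of the next strongest sites the replicates differed more. An intergenic site 101 kb from KLF3, a transcriptional repressor gene (chr4:38564359-38564760), had a fold enrichment of 10.7 in replicate 1 and 5.59 in replicate 2. A site in an intron of DPY19L2 (chr12:63978224-63978529) went the other way, with 5.78 and 9.59. By contrast, the site in LINC00511 (chr17:70367005-70367342), a non-coding gene 250 kb from SOX9, a transcription factor of cartilage and bile duct development, had 7.34 and 7.97. The intergenic site nearest to NAMPT, a gene of NAD synthesis (chr7:105998510-105999071, 72.4 kb away), had 8.35 and 7.03, with the summits of both replicates at the same base. At SNX29 (chr16:12543680-12544070, intron) the values were 6.56 and 8.46, and at ZBTB20, a zinc finger repressor gene (chr3:114425442-114425726, intron), 8.22 and 6.84.

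The remaining sites among the 20 strongest lay in introns that GCFC2 and MRPL19 share, in MOXD1, AURKA and NT5DC1 and in the non-coding gene LINC01500 near DACT1. Others lay at the start of the non-coding gene AL445464.1 within MSH4, in an untranslated region of TMEM52B, and between genes near CLINT1, TOX, GGT1 and ADAMTS16. AURKA encodes a mitotic kinase, and DACT1 an inhibitor of Wnt signalling. Of all 20, 12 were intronic, 6 intergenic, 1 exonic and 1 at a start. Their fold enrichments ran from 5.12 to 10.8.

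The next comparison concerned position, which the choice of sites did not use. Within 1 kb of a transcription start of any gene lay 28 sites (7.12%), against 22.4% of consensus sites, 29.4% of sites in both D4 soft lists and 37.9% of sites found in every library. Among sites found in one other condition alone, the share was 12.1% of 1373 in D4 stiff, 8.24% of 461 in D2 stiff and 3.23% (1 site) of 31 in D2 soft. Introns held 205 sites (52.2%), intergenic sequence 139 (35.4%) and exons 21 (5.34%). Across the numbers of sharing libraries the promoter share ran from 7.12% with none through 9.9% with 1 and 14.6% with 4 to 37.9% with all 6, in the same order as the pileup. Shares of sites have no test here, because sites of the same libraries are not replicates.

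**Figure D3:**
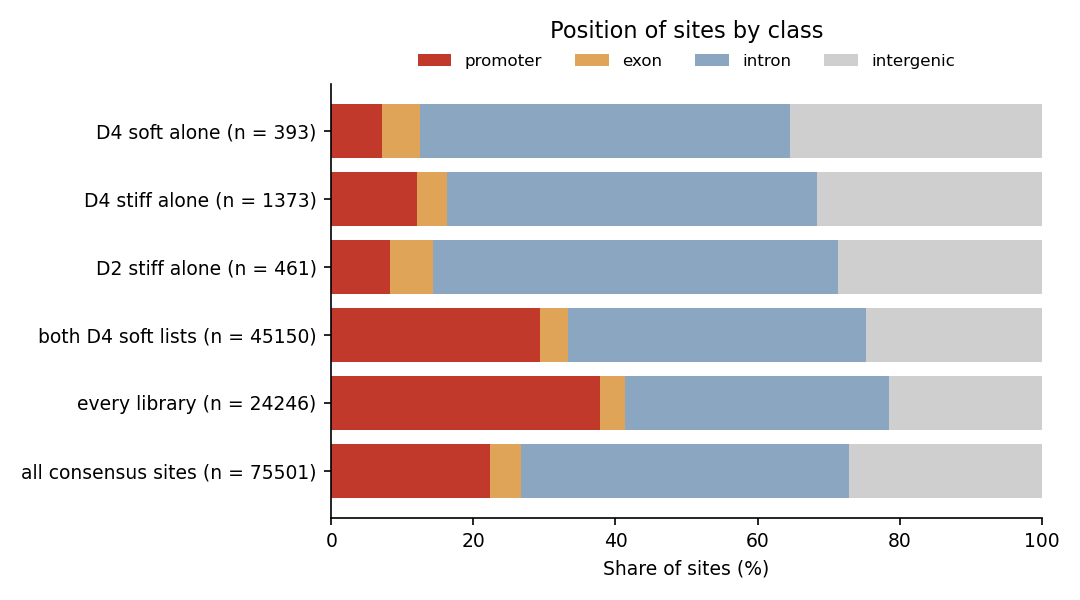
Share of sites (x axis, in percent) at promoters (centre within 1 kb of a transcription start), in exons, in introns and between genes, for each class of site named on the left. Sites found in D4 soft alone had 7.12% at promoters and 35.4% between genes, and sites found in every library 37.9% and 21.5%.

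The sites were far from protein-coding starts, although 186 (47.3%) lay inside a protein-coding gene. The median distance to the nearest protein-coding start was 59.3 kb, against 30.0 kb for consensus sites, 38.8 kb for sites of D4 stiff alone and 34.8 kb for those of D2 stiff alone. More than 100 kb lay between the site and that start at 148 sites (37.7%, against 24.5% of consensus sites). A site found in every library lay within 50 kb of 216 sites (54.96%), against 66.4% of the 51255 consensus sites that were not themselves found in every library. Among sites of D4 stiff alone and D2 stiff alone, the shares were 63.6% and 67.7%. At the 788 sites shared with 1 further library, the median distance to a protein-coding start was 55.1 kb and the share 55.3%. When lists of equal length defined the sites, the share was 42.6% for the D4 soft-alone sites. It was then 54.8% for D4 stiff alone, 53.3% for D2 stiff alone and 52.8% for D2 soft alone. Without D2 soft replicate 1 the D4 soft-alone share was 66.1%, and the number of sites found in every remaining library rose to 35578.

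Within 1 kb of a protein-coding start lay 2.04% of the sites, against 17.6% of consensus sites. The shares were 7.87% for D4 stiff alone, 4.12% for D2 stiff alone and 0% for D2 soft alone. The D4 soft-alone sites this close numbered only 8. Of these, 4 genes had a promoter peak in both D4 soft libraries and in no other: GSTM3, a glutathione transferase (chr1:110282988-110283602, fold enrichments of 4.49 and 3.84), KCNMB1, a subunit of the calcium-activated potassium channel of smooth muscle (chr5:169816088-169816487, 4.15 and 4.08), MASP1, a complement protease (chr3:187008863-187009442, 3.85 and 4.48), and PCDH12, a protocadherin of endothelium (chr5:141337735-141338526, 4.43 and 4.78). All 4 stood more than 75% from the top of both lists, with 5 to 11 fragments at the summit. The GSTM3 summits of the replicates were 317 bp apart, and GSTM3 belongs to a cluster of similar genes, among which reads can be misplaced. Whether reads were misplaced here was not tested. CSGALNACT1, an enzyme of chondroitin sulfate synthesis (chr8:19615035-19615530, 3.77 and 5.4), also had a promoter peak in D2 stiff replicate 2 at another position, and FAM83F (chr22:40404850-40405145, 3.67 and 3.15) in D2 soft replicate 2. FSD1L (chr9:108262664-108263039, 5.92 and 4.48) and ITGBL1 (chr13:102105066-102105783, 3.28 and 3.25) had further promoter peaks in every library, so that their members were additional peaks at genes with an open promoter.

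The promoters of the nearest genes had about the distribution seen for consensus sites. Of the 385 sites beyond 1 kb of a protein-coding start, 178 (46.2%) had a nearest gene with a promoter peak in every library, and 83 (21.6%) one with no promoter peak in any. For consensus sites the shares were 47.6% and 20.4%. Other peaks were no denser around the sites in one condition than in another: 1.55 to 1.64% of the peaks of each of the 8 libraries lay within 50 kb of a member, the members' own peaks left out.

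The 393 sites had 377 different nearest protein-coding genes, and 12 genes were nearest to more than 1 site. CDH2 had 3, the intronic site above and 2 weak ones 364 and 514 kb upstream, with fold enrichments of 3.85 and 3.84 (chr18:26121450-26122133) and of 3.21 and 3.84 (chr18:26271208-26271842). GPAT3 also had 3, the second of them 286 kb from its start (chr4:84742593-84743042), with 6.93 and 6.3. FSTL5, a follistatin-like gene, had 3, of which 2 in its introns were neighbours (chr4:162475677-162476226 and chr4:162476849-162477188). CDH9, a cadherin gene, had 3, all between 160 and 1044 kb away. The genes with 2 sites were CENPF, a kinetochore protein gene, ADAMTS16, CTNNA2, ITGBL1, MAT2B, PTPRO, RBFOX1 and THBS2. At PTPRO, a receptor phosphatase gene, both lay in introns 11.8 and 17.6 kb from a start, with fold enrichments of 5.91 and 6.5 (chr12:15687136-15687724) and of 3.76 and 4.76 (chr12:15716794-15717072).

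Genes were then grouped by lists that cover stellate cell biology, with a site assigned to its nearest protein-coding gene and to the gene it lay in. Cadherins, catenins and junction genes held 17 of the 393 sites (4.33%, against 1.62% of consensus sites and 2.11% of sites of D4 stiff alone) at 12 of 78 genes. The members were 3 sites each at CDH2 and CDH9, 2 at CTNNA2, and 1 each at CDH6, CDH7, CDH12, CTNNA3, CTNND2, GJA1, MAGI2, PCDH7 and PCDH19. CTNNA2, an alpha-catenin gene, had one at chr2:81885433-81885776 (7.06 and 6.04). GJA1, the gap junction gene of connexin 43, had a site 208 kb away (chr6:121966337-121966614, 6.2 and 6.3), and PCDH19 one 318 kb away. Only 5 of the 17 sites lay inside the listed gene. Of the other 12, 11 were more than 100 kb and 7 more than 500 kb from its start, so that for these the assignment says only which gene is nearest. CDH2 had a promoter peak in every library, CDH6 and PCDH7 in 7, CDH9 in 4, and CTNNA2, CDH7 and PCDH19 in none.

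Ion channel and neuronal genes held 15 sites (3.82%, against 2.46% of consensus sites). The shares were 2.91% of sites of D4 stiff alone and 3.47% of those of D2 stiff alone. Of the 15 sites, 10 lay inside the listed gene. Among these were introns of DLGAP1, NRXN3 and GRIA3, which encode synaptic proteins, with fold enrichments of 4.49 and 5.92, of 5.14 and 5.12, and of 5.14 and 5.12. TENM4 had an intergenic site 322 kb away with 5.69 and 5.12. Extracellular matrix genes held 9 sites (2.29%, against 1.40%). The strongest was 23.2 kb from ADAMTS16, a metalloprotease gene (chr5:5117078-5117376, 6.47 and 6.67), followed by introns of ADAMTS17 (6.05 and 6.47) and FBN1, the gene of fibrillin-1 (4.21 and 5.77), and a site 103 kb from LAMA2 (3.6 and 5.59). The others were at COL8A1, MMP1 and THBS2, and a second site was nearest to ADAMTS16, 135 kb from its start (4.23 and 3.84).

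Developmental transcription factors held 13 sites (3.31%, against 3.35%), with KLF3 and SOX9 as given above, ZEB2 at 1291 kb (6.68 and 5.12) and FLI1 in an intron (6.08 and 4.48). Growth factor and receptor tyrosine kinase genes held 6 sites (1.53%, against 1.36%), none of them inside the listed gene. The site nearest to EPHA7 was 274 kb away (4.49 and 7.03), and that nearest to IGFBP7 1698 kb away (5.78 and 5.76). NRG1 had one at 88.2 kb (6.42 and 5.12) and EPHB2 one at 6.09 kb (7.02 and 4.48).

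The other lists had 0 to 3 sites each, too few to set apart from their shares of consensus sites. Quiescence genes had 0.763% of the sites against 0.494% of consensus sites, activation genes 0.254% against 0.424%, TGF-beta genes 0.763% against 0.901%, and AP-1 subunit genes none against 0.172%. Activation and contractile genes had 1 of 42 genes with a site, an intron of SYN3 with TIMP3, an inhibitor of metalloproteases, 88.8 kb away (4.68 and 4.48). Quiescence, retinoid and lipid genes had 3 of 52: BAMBI, a decoy receptor of TGF-beta, at 165 kb (6 and 4.31), CD36, a fatty acid transporter (4.31 and 3.84), and RELN (3.69 and 3.84). The CD36 and RELN sites lay inside these genes. TGF-beta, BMP and SMAD genes had 3 of 61, namely BMP10 (6.42 and 6.4), BMP7 (5.18 and 5.52) and again BAMBI. Wnt and Hippo genes also had 3, DACT1 at 139 kb (9.11 and 5.75), SFRP4, a secreted Wnt antagonist, in an intron (7.7 and 3.78), and, at 204 kb, VGLL3, a TEAD cofactor (4.49 and 6.4). Inflammatory genes had 2 of 99, CXCL12 at 273 kb (4.49 and 4.38) and VCAM1 in an exon (3.94 and 3.68). APOA1 among hepatocyte genes had 1 nearest site (5.14 and 8.03), in an intron of SIK3 111 kb away. AURKA among cell cycle genes had 1 in its own intron (8.99 and 5.26), and none of the 20 AP-1 subunit genes had any. Over all 20136 protein-coding genes, 425 (2.11%) had a site by the same assignment.

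Sequence was not used to choose the sites either. An AP-1 motif lay within 100 bp of the summit at 101 sites (25.7%), against 30.2% of consensus sites, 28.8% of sites of D4 stiff alone and 31.5% of those of D2 stiff alone. The TEAD motif lay at 56 sites (14.2%), against 19.1%, 19.0% and 24.7%. Either motif was present at 145 sites and both at 12. The AP-1 share differed with strength within the set: it was 36.2% of the 196 sites with the better mean rank and 15.2% of the 197 others. The corresponding TEAD shares were 16.8% and 11.7%. Of the 20 strongest sites 8 had an AP-1 motif. The share was 16.9% without D4 soft replicate 1 and 19.8% without replicate 2, and in a window of 50 bp on each side it was 19.6%, against 20.4% of consensus sites.

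The GC box (GGGCGG), bound by SP factors at CpG-rich promoters, lay at 4.58% of the sites, against 16.2% of consensus sites, and the ETS motif (CCGGAAG) at 0.763% against 3.55%. Promoters made up 7.12% of the sites and 22.4% of consensus sites. At sites of D4 stiff alone and D2 stiff alone, the GC box shares were 10.7% and 8.03% and the ETS shares 1.46% and 0.868%. The motif of GATA factors, written AGATAA, lay at 14.8% against 10.7%. The SMAD motif was searched as CAGACAG and as its palindromic form GTCTAGAC, and lay at 7.89% of the sites against 5.72%. CTCF, the factor that bounds chromatin loops, had its motif at 5.34% of the sites against 3.81%. Sites of D4 stiff alone had 10.9% for GATA, 3.93% for SMAD and 5.61% for CTCF. A motif match is a run of letters and not a bound site. Median GC content was 45.3%, the same as at sites of D2 stiff alone. It was 48.3% at consensus sites, 47.3% at sites of D4 stiff alone and 52.2% at sites found in every library.

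**Figure D4:**
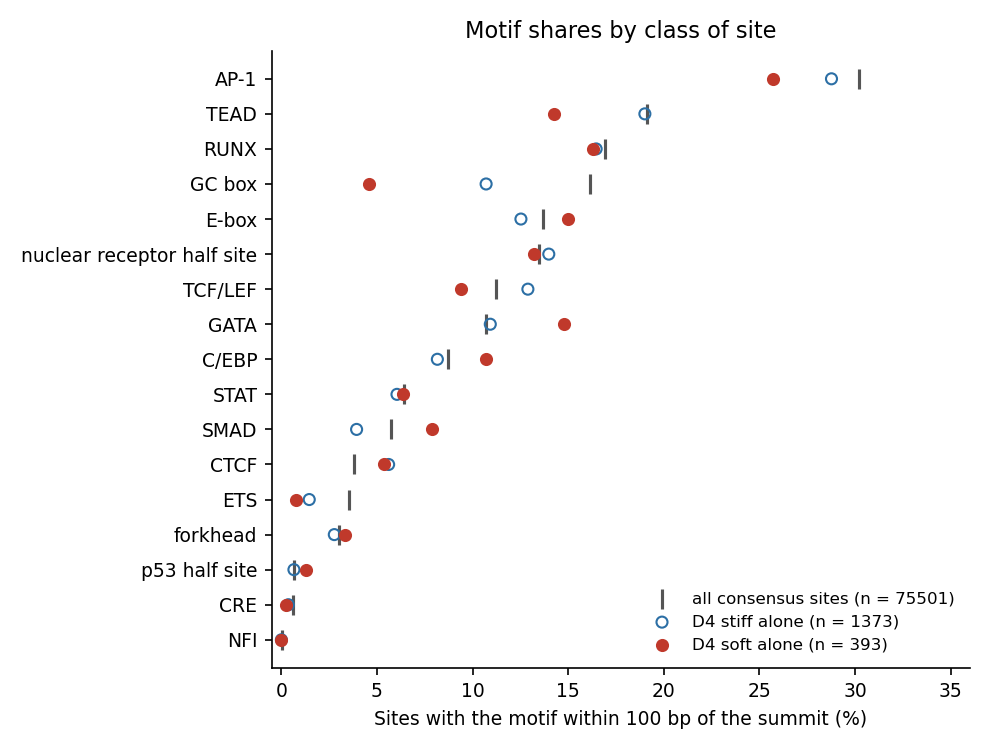
Share of sites with each of 17 motifs within 100 bp of the summit (x axis, in percent), for the 393 sites found in D4 soft alone (red), 1373 sites found in D4 stiff alone (open blue circles) and all 75501 consensus sites (grey ticks). The widest gap is at the GC box, with 4.58% of D4 soft-alone sites and 16.2% of consensus sites.

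The lists differ in length and depth, so the sites were also taken from lists of equal length, each reduced to its best 29789 peaks. This is the full length of the D2 soft replicate 1 list, which was left whole. The equal lists gave 188 sites found in D4 soft alone, of which 3 were among the 393, so that the definition decided which sites were described. Of the 188 sites, 102 (54.3%) had an AP-1 motif, against 32.0% of 38346 consensus sites built from the same lists. The share was 27.4% of 124 sites of D4 stiff alone, 30.4% of 240 sites of D2 stiff alone and 35.8% of 271 sites of D2 soft alone. TEAD motifs were at 15.4% of the 188 sites and promoters made up 6.38%, against 19.2% and 30.4% of the consensus sites. In the full lists 146 of the 188 sites had a peak in 5 to 7 libraries, and 151 and 158 had one in D4 stiff replicates 1 and 2, respectively. D2 soft replicate 1 had a peak at 3 of them. Against the lists that were shortened, the 188 sites were thus mostly ones with a better rank in both D4 soft lists, rather than sites without a peak. Their choice rests on ranks in the same libraries, and the shares are a description.

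**Figure D5:**
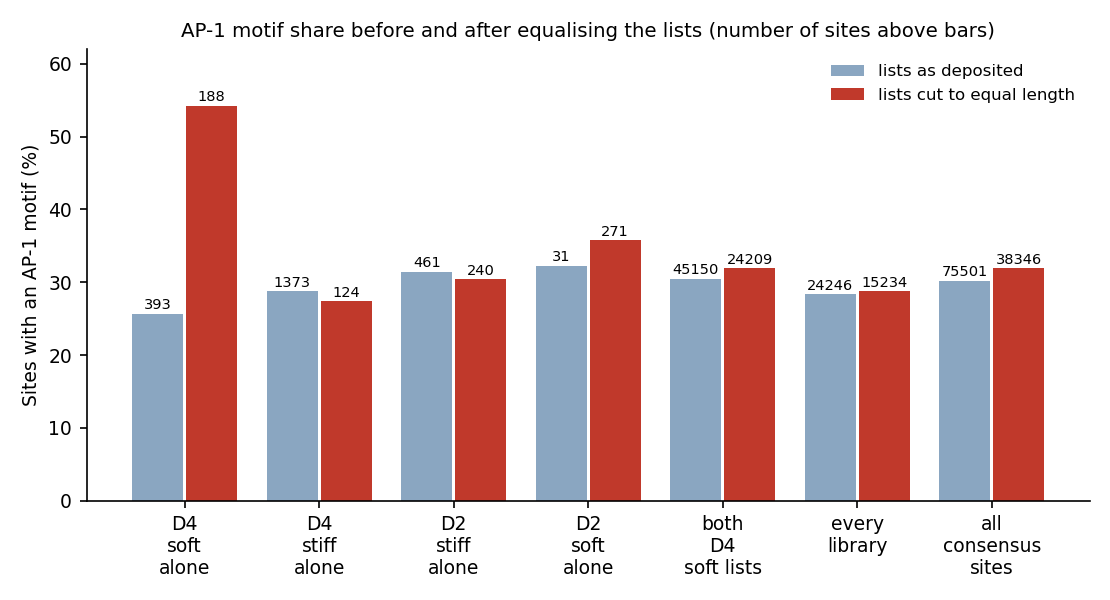
Share of sites with an AP-1 motif (y axis, in percent) by class of site, for the lists as deposited (blue) and reduced to equal length (red), with the number of sites above each bar. The D4 soft-alone class differs most between the definitions, with 25.7% of 393 sites and 54.3% of 188.

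Signal in sites found in every library was compared as a measure that the choice did not use. For 24246 sites, fold enrichments were replaced by ranks in their own library, and normal scores of these ranks were fitted with limma. Such ranks remove any shift common to all these sites, and sites that lacked a peak in some library were not covered. The calls are thus not a count of all differences between the groups. The study tested read counts in peaks at other thresholds, and reported mostly gains on the stiff matrix at D4. Between D4 soft and D4 stiff 2 sites (0.00825%) passed an adjusted p of 0.05 (limma, Benjamini-Hochberg), both lower in D4 soft, and 1297 had an unadjusted p under 0.05. Between D4 soft and D2 soft the calls made up 0% of the sites, that is none, with 1715 at an unadjusted p under 0.05 (limma). The comparisons share the D4 soft libraries. The first called site lay at chr1:1677648-1678261, in the duplicated region of CDK11A (difference of -3.44 normal scores, adjusted p = 0.011 by limma). Reads of near-identical copies could be misplaced there, which was not tested. The second lay at chr6:32222836-32223722, 31.4 kb from NOTCH4 (-2.96, adjusted p = 0.0496 by limma). The first had fold enrichments of 9.36 and 7.67 on the soft matrix at D4, below the 18.8 and 19.95 on the stiff one. For the second, the D4 values were 10.01 and 6.34 (soft), below 15.8 and 19.2 (stiff). The third smallest p was at the promoter of RGPD8, a member of another duplicated family (-2.87, adjusted p = 0.11 by limma). No site was called without any one of the 4 D4 libraries, 1 without either D2 stiff library and 6 without D2 soft replicate 2.

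The called sites were 3897 and 1567 kb from the nearest member, and shared sites near members had about the distribution of all shared sites. Within 50 kb of a member lay 396 shared sites, of which none was called in either comparison. Their median difference was 0.051 normal scores between D4 soft and D4 stiff, against 0.022 over all sites, and 5.30% had an unadjusted p under 0.05, against 5.35%. For D4 soft against D2 soft the medians were 0.0099 and -0.020 and the shares 6.06% and 7.07%. In this second comparison the 3 sites with the smallest p were an intergenic site 113 kb from MC4R (2.71, adjusted p = 0.126 by limma), an intronic site lower in D4 soft (-2.43, adjusted p = 0.305 by limma) and one 36.8 kb from ZCCHC2 (2.33, adjusted p = 0.364 by limma). At the first the fold enrichments were 11.5 and 11.6 in D4 soft and 4.07 and 4.76 in D2 soft. With 2 libraries in each group, small differences could not be detected by this fit. Without D2 soft replicate 2 the second comparison called 224 sites, 184 of them higher in D4 soft, and D2 soft was then represented by its shallowest library alone.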

How the data were processed

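ATAC-seq peak lists of 8 LX-2 libraries (2 matrices, 2 days, 2 replicates each) were used, with groups taken from the sample labels. Reads were trimmed with Trim Galore, mapped to hg19 (GRCh37) with Bowtie2 (version 2.4.1 in the submitters' processing notes), and peaks were called in each library with MACS2 at a q-value up to 0.05. The notes also name Picard and bedtools 2.24.0. MACS2 options, read filters and the handling of Tn5 offsets are not given in the sources used here. Fold enrichment, as deposited, is a ratio of summit pileup to a background estimated for each library separately, and the deposited −log10 p and −log10 q values refer to that background, so values are comparable within a list. The deposited score, 10 times the −log10 q, was not used. The other deposited measure used was the summit offset.

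Peaks were merged where they shared 1 bp, and coordinates are 1-based. Pileups were solved from fold enrichment and p under the MACS2 model, which matched 100% of peaks with −log10 p under 200 (tolerance 0.01). Read totals were not used, and depth was taken as the lowest background of a list over its shortest peak, which rests on that model. Annotation was GENCODE release 44 on GRCh37 (110162 starts, 20136 protein-coding genes), by the centre of a site. Motifs were searched within 100 bases of the summit of the best-ranked peak. Normal scores were fitted with limma 3.58.1 in R 4.3.3, with 4 group means, and tested on simulated data. The sites, motifs and gene lists were chosen with earlier results of these data known. Sites described in full were the 20 with the best mean rank, all within 1 kb of a protein-coding start, those at genes with 2 or more sites, up to 4 per gene list, 3 on each side of the choice, and the 3 shared sites of smallest p in each comparison. Alternatives were other overlaps, q thresholds, list lengths, a distance to other peaks, shorter motif windows, other signal scales, a replicate block and leaving out each library. One gene list and the place of one shared site are not reported here.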

Additional observations from a re-analysis of the deposited data

How the results depend on the processing

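The number of sites depended on list length and on single libraries. Lists of equal length gave 188 sites, and leaving out 1 library at a time gave 410 to 4787, the highest values arising where 1 D4 soft list alone had to hold the peak. Other overlaps, q thresholds and a distance of 1000 bp to other peaks stayed within 1.5 times the 393 sites. The promoter share was 2.04% with protein-coding starts only and 6.14 to 9.36% with 1 library left out. The AP-1 share was 54.3% with lists of equal length, 19.6% in the shorter window and 16.9 to 28.9% with 1 library left out, and the TEAD share was 8.14% in the shorter window. The cause of these shifts was not tested. Peak lists show no coverage below threshold, and the sites rested on a median of 7 and 6 fragments.

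Of the shared sites, D4 soft against D4 stiff had 0 calls by limma with −log10 p ranks, 0 with log2 fold enrichment, 3 with only the 4 libraries compared, and 0 to 6 with 1 library left out. D4 soft against D2 soft had 0 to 224 calls with 1 library left out and 0 under the other alternatives. A library left alone in its group was assumed to vary like the other groups. By the replicate numbers of the sample titles, deviations of same-numbered libraries correlated between -0.041 and 0.084, which shows no pairing, and the fit with that number as a block gave 2 and 0 calls. Peak names inside the lists carry other replicate numbers. Exchanging the numbers within a group would only reverse the sign of its correlations, whereas a block under another numbering was not tested.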

Other observations

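The sites were spread over the chromosomes, with 0.852% of the consensus sites of chromosome 14 and 0.819% of those of chromosome 4 found in D4 soft alone, beside 0.521% over all chromosomes. The shares were lowest on chromosome 15 (0.267%) and chromosome 19 (0.278%) among chromosomes 1 to 22. These are values of one set of libraries, and no difference between chromosomes was tested.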
